A study of Gallus gallus with 8 samples.

Results

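CXCL14, CXCL12 and the CXCL12 receptors CXCR4 and ACKR3 were followed in the head of the chick embryo, in the cranial neural fold and in the ventral neural plate between the folds. The 4 genes were found by symbol, and 7 probe sets measured them, of 38439 on the array that are not Affymetrix controls and that name 13009 genes by a single symbol. CXCL14, CXCR4 and ACKR3 have 1 probe set each and CXCL12 has 4. The platform lists ACKR3 under its older name CXCR7, which the RefSeq gene table of assembly GRCg7b pairs with ACKR3. They were chosen by family with their levels in the 2 tissues already known, the same intensities that are given here, so their differences stand as a description, with the standard error (SE) of the fit and no test.

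All samples were Gallus gallus embryos at Hamburger and Hamilton stage 8, when the neural folds rise at the edges of the neural plate, from eggs incubated at 38 °C. The labels give neither a strain nor a treatment for either tissue. The neural fold, the raised rim of the plate that holds the future neural crest, and the neural plate gave 4 samples each. The series text gives 80 to 114 embryos, which points to pooled tissue, and the spread between samples may be partly technical. Each sample was hybridised to 1 GeneChip chicken genome array, and fewer cells of a type cannot be told apart from less RNA per cell in such pieces of tissue.

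CXC chemokines are small secreted proteins that steer migrating cells through receptors of the G protein coupled class. CXCL12 signals through CXCR4, which couples to inhibitory G proteins, and the pair guides primordial germ cells, blood cells and migrating neural crest cells. ACKR3, formerly CXCR7, binds CXCL12 too, but recruits arrestin in place of G proteins and takes the ligand up for breakdown, so that it can shape CXCL12 gradients. CXCL14 is a conserved chemokine made largely by epithelia, and its receptor is not settled.

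The deposited intensities were analysed as log2(value + 16) after quantile normalization, written below as the log2 level, and every change is neural fold minus neural plate on that scale. A log2 level compares arrays for 1 probe set, and levels of different probe sets are not compared. The arrays numbered 1 differed from the rest, with median intensities of 195.8 (fold) and 182.3 (plate) where the other 6 arrays had 105.4 to 121.7, and results are also given without them. The dissections carried their labels' markers. PAX7, a regulator of the neural plate border, rose in neural fold by 6.14 ± 0.31 (SE, limma adjusted p = 0.00015) and TFAP2B, a border and crest factor, by 5.36 ± 0.24 (7.7e-05). In neural fold NKX6-1, a factor of ventral neural progenitors, had a change of -5.13 ± 0.31 (0.00028), and SHH, which patterns the ventral neural tube, one of -2.31 ± 0.27 (0.0055). In the tissue where it was low, PAX7 lay above background on 1 of 4 arrays, NKX6-1 on 2, and TFAP2B and SHH on 3 each, so the sizes of these changes are imprecise.

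Among the ligands, CXCL14 lay far higher in neural fold. Its probe set (Entrez gene 395451) had deposited intensities of 1071.8, 1338.3, 1318.9 and 1405.0 on the neural fold arrays 1 to 4 and of 174.5, 87.8, 37.9 and 82.9 on the neural plate arrays 1 to 4. Every neural fold array was above every neural plate array, and the plate array numbered 3 was the lowest. The mean intensity in neural fold was 1283.5 ± 145.9 and that in the plate 95.8 ± 57.1 (SD, n = 4 each), a ratio of 13.4.

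On the log2 scale CXCL14 had 10.33 ± 0.14 in the fold and 6.67 ± 0.46 in the plate (SD, n = 4 each), a change of 3.66 ± 0.24 (SE). This was the 16th largest rise of the 23063 probe sets tested. The lowest fold array exceeded the highest plate array by 3.05. Each array's background limit was the level that 95% of 59 control probe sets, for bacterial RNAs and synthetic tags, did not exceed. CXCL14 lay above this limit on 4 of 4 neural fold arrays and on 3 of 4 neural plate arrays. With the remaining plate array at its limit, CXCL14 was 12.02-fold higher in neural fold, against 12.66-fold as fitted. In the pairs of arrays that share a number, the change ranged from 3.05 in pair 1 to 4.35 in pair 3. Without both arrays numbered 1 it was 4.08. The suffix of its name (_s_at) marks, by Affymetrix's convention, probes that match several transcripts, and whether these belong to other genes was not tested.

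CXCL12 (Entrez gene 395180), the ligand of CXCR4 and ACKR3, had values in the opposite direction. Its brightest probe set had deposited intensities of 1197.1, 1437.1, 1394.6 and 1212.7 on the neural fold arrays 1 to 4. The neural plate arrays 1 to 4 gave 2287.8, 2656.6, 3064.1 and 2976.4. All plate arrays lay above all fold arrays, and array 1 was the lowest of each tissue. The mean intensity was 1310.4 ± 123.2 on fold arrays and 2746.2 ± 352.2 on plate arrays (SD, n = 4 each), 2.10 times higher in the plate. The log2 levels were 10.37 ± 0.10 and 11.42 ± 0.12, a change of -1.05 ± 0.14 (SE), with a gap of 0.82 between the tissues.

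The other CXCL12 probe sets were dimmer and had changes of the same sign. The second in brightness had log2 levels of 8.03 ± 0.30 in the fold and 8.68 ± 0.24 in the plate (SD, n = 4 each), a change of -0.65 ± 0.20 (SE). The third had 7.47 ± 0.24 and 8.03 ± 0.44, a change of -0.56 ± 0.25. No label says that the numbers pair the samples. Matched by number, both probe sets were lower in neural fold in 4 of 4 pairs, by -0.94 to -0.23 for the second and -0.71 to -0.22 for the third. In both, the tissues overlapped through an array numbered 1. For the former this was fold array 1, at 8.45 against a lowest plate value of 8.36. For the latter it was plate array 1, at 7.43 against a highest fold value of 7.79. Without both arrays numbered 1 the changes were -0.85 and -0.73. As deposited, the tissues did not overlap for the third probe set, with fold intensities up to 203.6 and plate intensities from 217.2.

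The fourth CXCL12 probe set lay under the filter on dim probe sets. Its intensities were 163.7, 41.8, 22.8 and 6.4 in neural fold and 90.5, 123.2, 63.2 and 93.6 in neural plate. It lay above background on 1 of 4 fold arrays and 3 of 4 plate arrays, and its highest and lowest intensities as deposited were both from neural fold. Its change of -0.99 ± 0.47 (SE) had the sign of the others, but pair 1 alone gave 0.70. The change was -1.52 without both arrays numbered 1, -0.60 without fold array 4 and -0.55 with a pseudocount of 64.

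**Figure D1:**
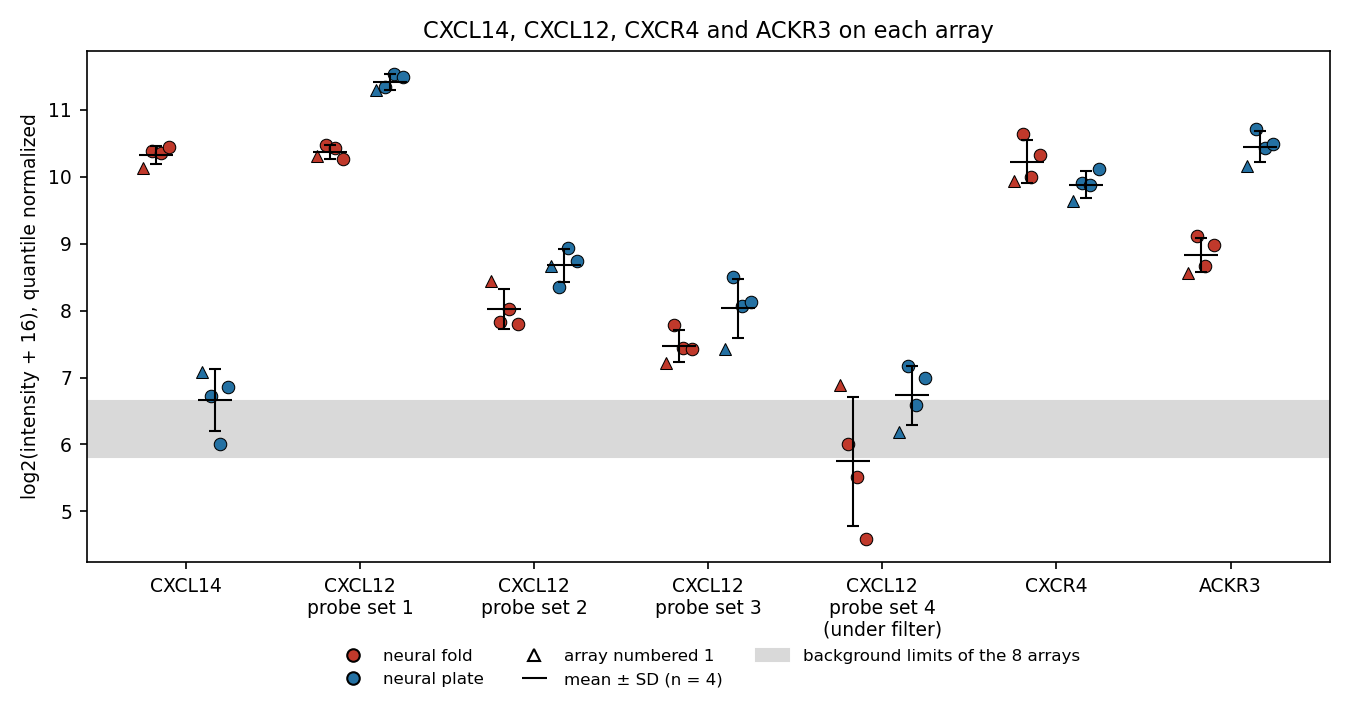
Log2 level (y axis, log2(intensity + 16) after quantile normalization) of the 7 probe sets (x axis, brightest CXCL12 probe set first) on each of the 4 neural fold arrays (red) and 4 neural plate arrays (blue), with mean ± SD in black, arrays numbered 1 as triangles and the range of the 8 background limits in grey. CXCL14 averages 10.33 in the fold and 6.67 in the plate, CXCL12 by its brightest probe set at 10.37 and 11.42, and ACKR3 at 8.83 and 10.45, while CXCR4 overlaps between the tissues.

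Of the receptors, ACKR3 shared the direction of CXCL12. Its probe set (Entrez gene 428997) gave intensities of 426.7, 511.6, 370.7 and 469.0 on the neural fold arrays 1 to 4 and of 1113.3, 1700.1, 1403.3 and 1469.7 on the plate arrays. Plate array 1, the lowest of its tissue, was above all fold arrays. Mean intensities were 444.5 ± 60.2 for the fold and 1421.6 ± 241.7 for the plate (SD, n = 4 each), 3.20 times higher in the plate. Log2 levels of 8.83 ± 0.26 and 10.45 ± 0.23 gave a change of -1.62 ± 0.19 (SE), the 94th largest fall of the 23063 probe sets. The brightest CXCL12 probe set held place 372 in the same order. The 4 number-matched pairs gave ACKR3 changes from -1.77 to -1.52, the narrowest range of the brightest probe sets of CXCL14, CXCL12 and ACKR3.

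CXCR4, the signalling receptor of CXCL12, was present in both tissues with overlapping values. Its probe set (Entrez gene 395324) gave 944.0, 1615.6, 1012.6 and 1280.5 on the neural fold arrays 1 to 4 and 790.5, 939.9, 942.1 and 1123.4 on the plate arrays. Fold arrays 2 and 4 were above all plate arrays, and fold arrays 1 and 3 lay within the range of the plate. Its log2 level averaged 10.23 ± 0.32 in the fold and 9.89 ± 0.20 in the plate (SD, n = 4 each), a change of 0.34 ± 0.20 (SE). Among rises over all tested probe sets, CXCR4 held place 3105. All 4 number-matched pairs had the higher value in neural fold, by 0.12 to 0.73, but no label says that the numbers pair the samples. Leaving out fold array 2 brought the change to 0.20, the lowest of the settings tried.

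Over the 6 member probe sets that passed the filter, the tissues did not overlap in 3, which were CXCL14 (higher in neural fold), CXCL12 by its brightest probe set and ACKR3 (both lower). Over all 23063 probe sets tested, 6.71% did not overlap, 3.12% with higher and 3.59% with lower values in neural fold. Since this contrast entered the choice of the genes, nothing is read from that count. The range of each member's change over the settings tried is shown in the plot of changes by setting.

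**Figure D2:**
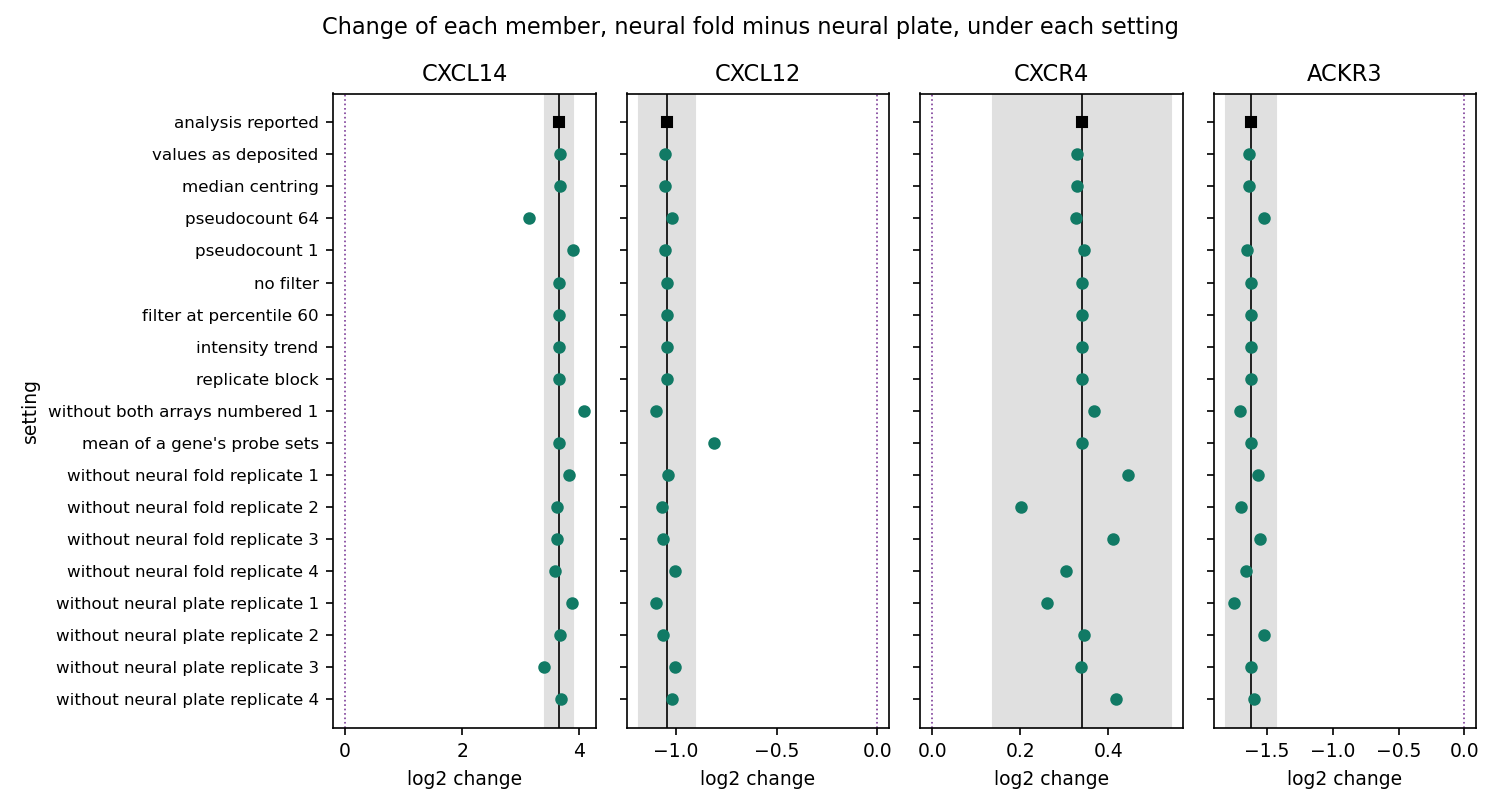
Change of each gene in log2 units, neural fold minus neural plate (x axis, 1 panel a gene with its own scale), by its brightest probe set under the analysis reported (black square, with ± 1 SE in grey) and under each other setting (green, y axis). The dotted line marks 0. CXCL14 and CXCR4 keep values above 0 and CXCL12 and ACKR3 values below 0 under all settings shown, of which the filters, the intensity trend and the replicate block cannot move a difference of means, and the farthest point for CXCL12 is the mean of its 4 probe sets at -0.81.

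Some markers of neighbouring tissues also differed between neural fold and neural plate. The notochord and prechordal plate are midline tissues under the neural plate. In limma (adjusted p under 0.05) 5 of the 8 measured genes of that list fell in neural fold and 0 rose, with the same counts when the array number was a block in the fit. Over all 10279 genes, by their brightest tested probe set, 1.75% passed, and 2.3% with the block. SHH and FOXA2, 2 of these 5, also belong to ventral neural tissue. TBXT, the notochord factor brachyury, changed by -3.72 ± 0.16 (SE, adjusted p = 7.7e-05). NOG (-0.69 ± 0.26), NOTO (-0.37 ± 0.16) and COL2A1 (0.10 ± 0.41) did not pass. The summed level of the list, as normalized intensity, was 2360 to 4902 in neural fold and 14256 to 22424 in neural plate. Every member was above background on all 4 plate arrays, and GSC, a prechordal plate factor, was above it on 0 fold arrays.

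The lists for endoderm, head mesoderm and blood vessels, where CXCL12 and its receptors are also known to act, had median changes of -0.79, -0.45 and -0.27. The median over all 10279 genes was -0.0052. These lists gave 1, 0 and 0 calls, and 2, 1 and 1 with the block, where 1.75% of all genes passed, and 2.3% with the block. Of 4 tested endoderm genes, 1 was lower in limma, SOX17, an endoderm factor (-2.70 ± 0.29, adjusted p = 0.0037). SOX17 lay above background on 1 of 4 fold arrays, so the size of its change is imprecise. Its other probe set, under the filter, had a change of -0.94 and overlapping tissues. The block added APOA1, an apolipoprotein gene (-1.42 ± 0.36, adjusted p = 0.16, and 0.012 with the block). The dimmer probe set of APOA1 fell by 1.99 ± 0.21 and passed without the block (adjusted p = 0.0027). Of the 4 tested endoderm genes, 3 had changes below 0 and 1, TTR, had one above it (0.43 ± 0.23). The list of 7 measured genes summed to 1305 to 2328 in fold and 2936 to 4046 in plate. Of 9 tested head mesoderm genes, 0 passed, with 5 at an unadjusted p under 0.05 and 1, SNAI1, lower with the block (adjusted p = 0.036). Here and below, the share of all genes at that unadjusted cut-off was not counted. Changes were below 0 for 6 of the 9 and above it for 3. TBX1, among the 5, was higher in neural fold, by 1.17 ± 0.42 (limma adjusted p = 0.42). TWIST1, a mesenchyme factor, had a change of -1.98 ± 0.53 (adjusted p = 0.18). That list of 12 measured genes summed to 2101 to 2394 in fold and 2706 to 3707 in plate. The list also holds genes of trunk paraxial mesoderm, among them MSGN1 and TBX6, which were above background on no fold array. Of 9 blood and endothelial genes, 0 passed and 3 had an unadjusted p under 0.05. Changes were below 0 for 5 of them and above it for 4, the highest that of HBE (0.36 ± 0.36). LMO2, a blood and endothelial factor, had a change of -2.39 ± 0.46 (adjusted p = 0.0504, and 0.0062 with the block), and its dimmer probe set fell by 1.82 ± 0.34 (adjusted p = 0.04999, and 0.041 with the block). Its list of 12 summed to 1538 to 2197 in fold and 2146 to 3484 in plate, and CD34 and RUNX1 were above background on no fold array. Over the 14 tested probe sets of that list, 2 passed in limma without the block. These were the dimmer probe set of LMO2 and a dimmer probe set of ETS1 or PECAM1, whose values are not shown.

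On the other side, 2 of 7 tested genes of the non-neural ectoderm, the epithelium beside the fold, rose with CXCL14, and 0 fell. The counts were the same with the block, and 1.75% of all genes passed (2.3% with the block). The 2 genes were CDH1, the epithelial cadherin (2.30 ± 0.16, limma adjusted p = 0.00056), and DLX5 (3.82 ± 0.29, adjusted p = 0.00058), which the neural plate border expresses as well. The 8 measured genes summed to 16720 to 19812 in fold and 9335 to 11869 in plate, and DLX3 was above background on no array of either tissue. The largest part of this sum was EPCAM, which did not pass (0.47 ± 0.14, limma adjusted p = 0.27). Of the 7 tested genes, 6 had changes above 0 and 1, KRT5, had one below it (-0.65 ± 0.50). The part of any of these tissues in the values of CXCL14, CXCL12 and ACKR3 was not tested.

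**Figure D3:**
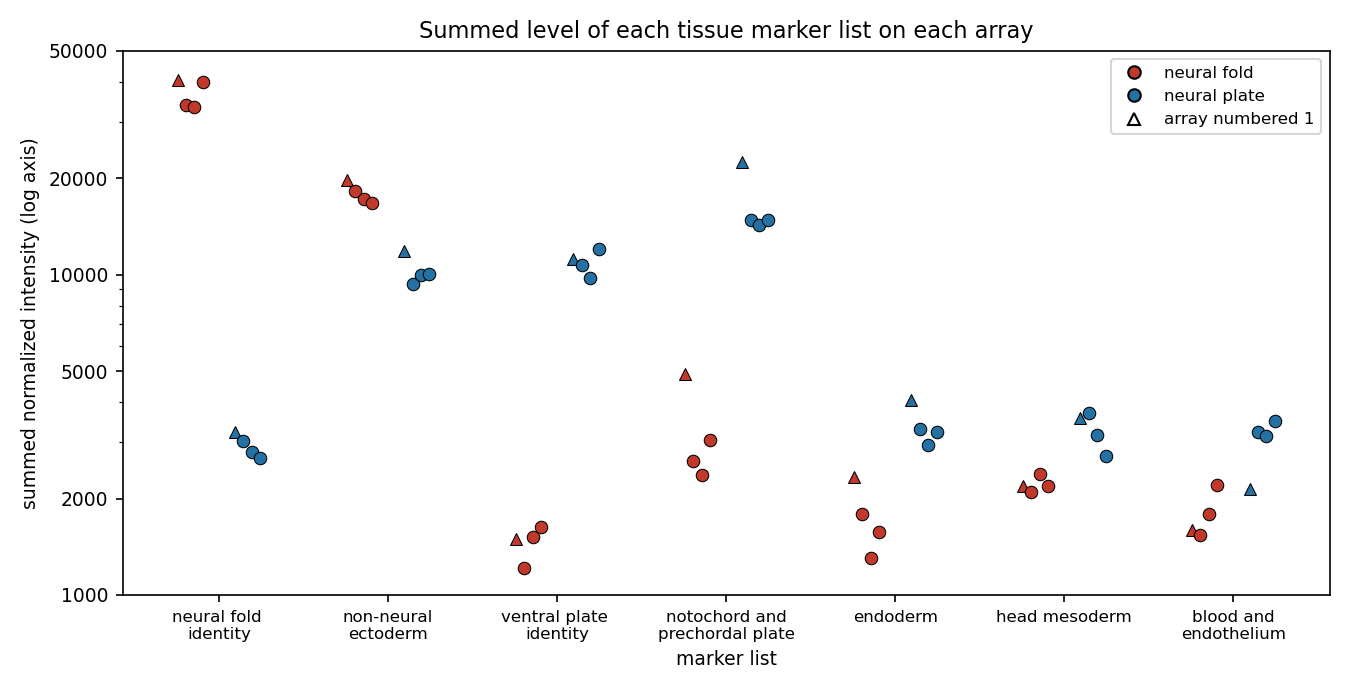
Summed normalized intensity (y axis, log scale) of 7 marker lists (x axis) on each neural fold array (red) and neural plate array (blue), with arrays numbered 1 as triangles. Neural fold identity and non-neural ectoderm genes sum higher on all fold arrays, and notochord and prechordal plate genes sum to 2360 to 4902 in fold and 14256 to 22424 in plate.

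Genes with profiles nearest to each member were found by the root mean square difference over the 8 arrays, each profile centred on its own mean. A gene with several tested probe sets entered by the nearest of them, not the brightest. Changes given for these genes are those of that probe set, and their other probe sets (PCSK5 had 6 tested and NFATC3 had 4) are not shown. Nearest to CXCL14 was CRHBP, which binds corticotropin-releasing hormone, at a difference of 0.31 log2 units, with 9.59 ± 0.47 in the fold and 6.12 ± 0.19 in the plate (SD, n = 4 each). TUBAL3, an alpha-tubulin-like gene (0.31), VWDE (0.34), FOXD3, a neural crest specifier (0.39), and DLX5 (0.44) followed. Their changes lay between 3.15 and 3.82, against 3.66 for CXCL14. CRHBP and VWDE were, like CXCL14, near background in the plate, each above it on 1 of 4 plate arrays.

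The genes nearest to CXCL12 had smaller differences, but its own change was smaller too and the measure is not scaled to it. YEATS4, a chromatin protein, differed by 0.10 and FAM129A by 0.11, followed by SH3BGRL2 (0.14), the transcription factor NFATC3 (0.15) and FGF3 (0.15), a fibroblast growth factor ligand. Their changes ran from -1.26 for FGF3 to -0.92 for NFATC3. For ACKR3 the nearest was PDGFA, a growth factor for mesenchyme, at 0.12, with 9.84 ± 0.28 in the fold and 11.43 ± 0.24 in the plate (SD, n = 4 each). The scavenger receptor COLEC12 (0.16), the matrix protein vitronectin, VTN (0.19), the kinase NUAK1 (0.21) and the proprotein convertase PCSK5 (0.21) came next. All 5 had changes between -1.61 and -1.44. These genes were selected for likeness over 8 arrays of 2 tissues, so that most of what they share is the difference between the tissues.

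**Figure D4:**
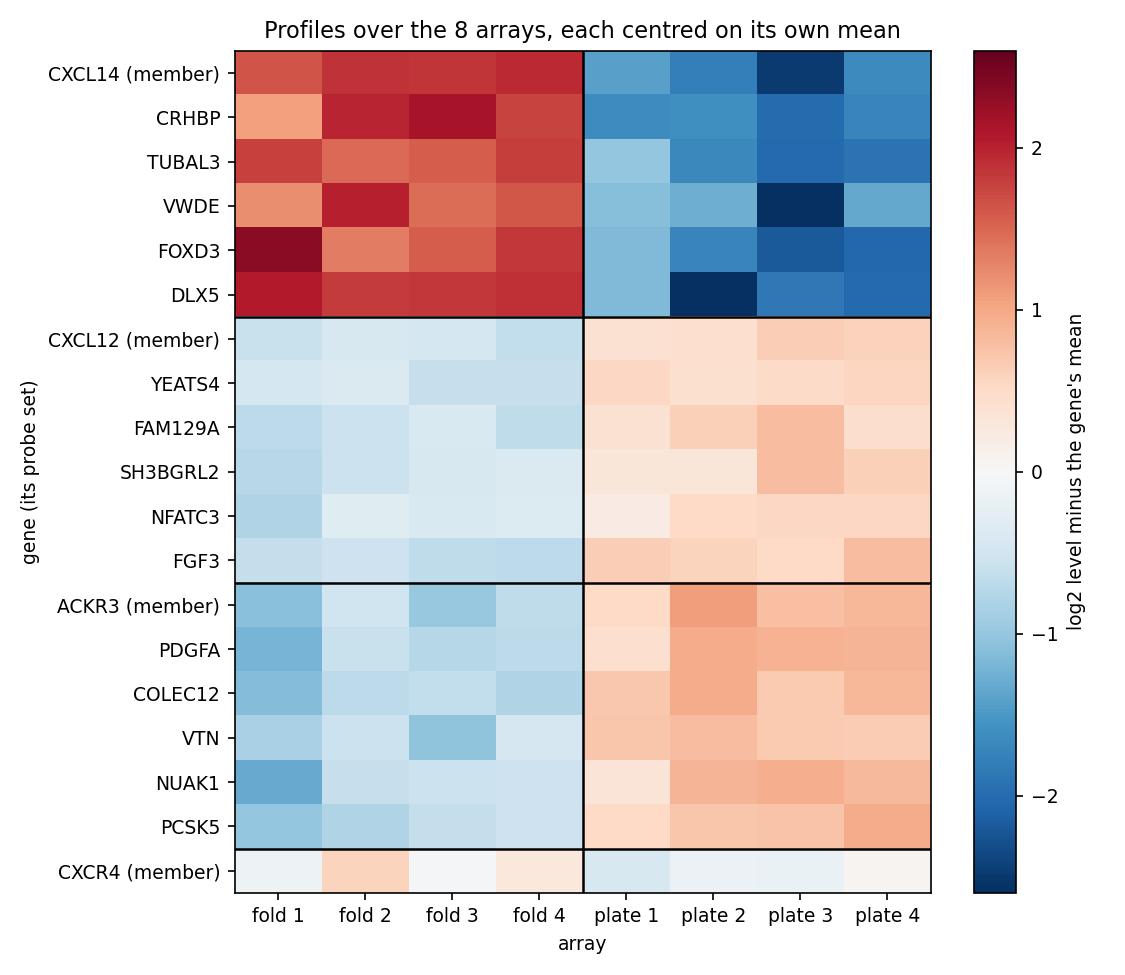
Log2 level of each gene minus its own mean over the 8 arrays (colour, from -2.6 in blue to 2.6 in red), with arrays as columns and genes as rows, for CXCL14, CXCL12 and ACKR3, each above its 5 nearest genes, and for CXCR4. The block of CXCL14 is red in neural fold, those of CXCL12 and ACKR3 are red in neural plate and paler, and CXCR4 has its highest value, 0.58, on fold array 2.

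Few other chemokines and chemokine receptors passed the filter on dim probe sets. Of 24 other chemokine ligands listed, 12 were on the array with a single symbol and 4 passed the filter. Of these 4, 0 were past the threshold in limma (adjusted p under 0.05, and 0 with the block). Over all genes 1.75% passed, and 2.3% with the block. At an unadjusted p under 0.05, for which the share of all genes was not counted, there was 1 ligand. This was CCL4, an attractant of immune cells, with levels of 8.19, 6.71, 7.64 and 6.30 on the neural fold arrays and 7.13, 5.55, 4.92 and 5.71 on the plate arrays. The tissues overlapped, and its change was 1.38 ± 0.55 (SE, adjusted p = 0.51). CCL4 lay above background on 3 of 4 fold arrays and 1 of 4 plate arrays. CXCL13L3, a gene related to CXCL13, had a change of 0.62 ± 0.37 (adjusted p = 0.83). The other probe sets of CCL4 and CXCL13L3, under the filter, had changes of the opposite sign, -0.29 and -0.14. CCL20 was above background on no array.

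Among 19 genes listed as other chemokine receptors, CD74 included, 10 were on the array and 3 were tested. Of these 3, 0 passed (0 with the block and 0 at an unadjusted p under 0.05). The share of all genes that passed was 1.75%, and 2.3% with the block. CX3CR1, the fractalkine receptor, had a change of -0.42 ± 0.68 and CCR7, a homing receptor of lymphocytes, one of -0.19 ± 0.49 (limma adjusted p = 1.00 for both). Their other probe sets, under the filter, had changes of -1.02 for CX3CR1 and 0.68 for CCR7. CCR7 lay above background on 2 of 4 fold arrays, and CX3CR1 on 3 of 4 arrays of each tissue. CD74, which is not of the G protein coupled class, was the third tested gene. By the brightest of its 3 tested probe sets it had a change of 0.08 ± 0.24, above background on 4 of 4 arrays of each tissue. CCR6 and CXCR5 were above background on no array. The median change was 0.61 over the 4 ligands and -0.19 over the 3 tested genes of the receptor list, CD74 among them. The median of all 10279 genes tested was -0.0052.

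Genes that act next to the receptors inside the cell gave 1 call. Of 22 tested G protein subunits, receptor kinases and RGS proteins, 1 fell in neural fold, 0 rose and 21 did not pass, with a median change of -0.02 (1.75% of all genes passed, as above). The lower gene was GNG10, a G protein gamma subunit. It had levels of 9.85, 10.496, 10.28 and 10.29 on the neural fold arrays 1 to 4 and of 11.21, 11.46, 10.99 and 11.46 on the plate arrays. The tissues did not overlap, and GNG10 fell by 1.05 ± 0.19 in log2 units (SE, limma adjusted p = 0.045, and 0.048 with the block). Its call was lost when any 1 array was left out, and with the values as deposited. GNAI2, an inhibitory G protein alpha subunit of the kind CXCR4 couples to, had a change of -0.08 ± 0.17 and the receptor kinase GRK2 one of 0.05 ± 0.28 (adjusted p = 1.00 for both; these were chosen after their values were seen).

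Effectors of cell migration gave 0 calls among 30 tested genes in limma, where 1.75% of all genes passed (0 with the block, where 2.3% did). Of the 30, 7 had an unadjusted p under 0.05, and the median change was -0.06. The share of all genes at that unadjusted cut-off was not counted, so nothing is read from the 7. The largest change was that of PIK3R5, a regulatory subunit of the phosphoinositide 3-kinase that G proteins activate. Its probe sets disagreed: the brightest had -0.96 ± 0.25 (SE, adjusted p = 0.17), a dimmer one fell by 1.75 ± 0.30 (adjusted p = 0.033) and the third had 0.11 ± 0.63. PREX1, an exchange factor for Rac, had a change of -0.95 ± 0.40 (adjusted p = 0.57), and its dimmer probe set one of 0.22 ± 0.69. The lowest adjusted p of the list was that of PTK2, higher in neural fold by 0.75 ± 0.16 (0.076, and 0.053 with the block).

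Of the genes listed as partners of CXCL12 outside the cell, such as proteoglycans and proteases, 15 were tested. In limma 1 fell in neural fold, 0 rose and 14 did not pass, where 1.75% of all genes passed (2.3% with the block). The median change of the list was -0.10. The lower gene was VCAN, the matrix proteoglycan versican. It had 12.06, 11.98, 11.997 and 11.90 on the neural fold arrays 1 to 4 and 12.85, 12.69, 12.74 and 12.78 on the plate arrays, with no overlap. VCAN fell by 0.78 ± 0.13 in log2 units (limma adjusted p = 0.029, and 0.037 with the block). Its call was lost without fold array 2, 3 or 4 or plate array 2, 3 or 4, each left out alone. Its other probe set had a change of -0.53 ± 0.16 (adjusted p = 0.26). MMP9 and VCAM1 were above background on no array.

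**Figure D5:**
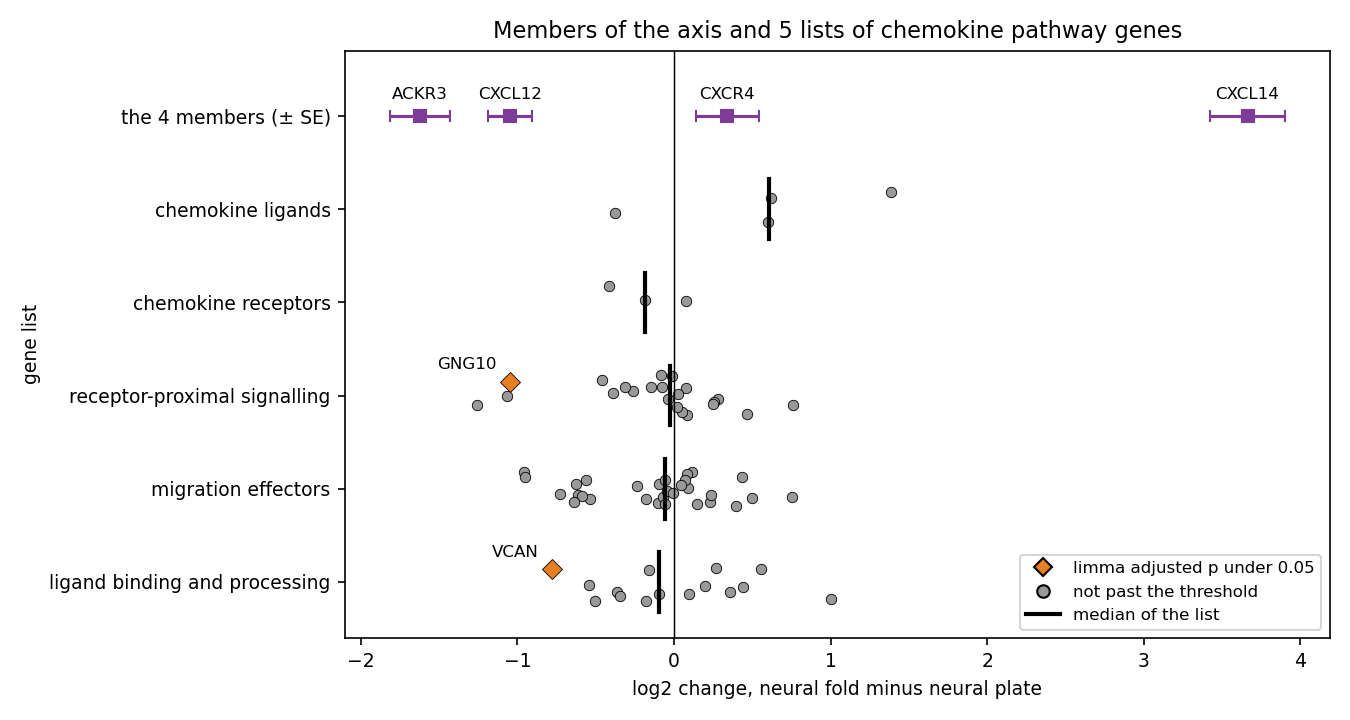
Log2 change, neural fold minus neural plate (x axis), of the 4 members by their brightest probe set (purple, ± SE) and of each tested gene of 5 chemokine pathway lists (y axis), with genes past an adjusted p of 0.05 in limma as orange diamonds and the list median as a bar. GNG10 and VCAN are the diamonds, at -1.05 and -0.78, and 52 of the 74 list genes lie within 0.5 of 0.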

How the data were processed

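Messenger RNA of 8 samples was hybridised to 1 array each, from 6 µg of total RNA per the labels' protocols. The authors deposited a linear intensity for every probe set on every array, from Affymetrix's GCOS software per the submitters' processing notes. Its version, background treatment and detection calls are not given in the sources used here. The table held 38535 probe sets and 0 unused columns. The number of arrays limits the precision. The 96 control probe sets were left out, log2(value + 16) was quantile normalized because array medians differed by 0.80, and the 23063 probe sets whose mean reached the 40th percentile were kept. Changes of dim genes are understated. The tissues were compared with limma 3.58.1 (lmFit, eBayes, R 4.3.3), with p-values adjusted over all tested probe sets by Benjamini and Hochberg's method and a threshold of 0.05.

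Symbols came from the platform's 2016 annotation: 27168 probe sets had 1 symbol, 177 several and 11094 none. The brightest tested probe set stood for a gene in lists. The files state no genome build, so coordinates are left out, and sequences were not used. The members, lists and settings were chosen with earlier results of these data known. Besides the members, the rule named each pathway list gene past the threshold (otherwise the 2 largest changes of that list), 8 tissue markers and the 5 genes nearest to a member. Further list genes, among them PTK2, RGS4, APOA1, SNAI1, TTR, TBX1, HBE, CDH1, EPCAM and KRT5, were named outside this rule with their values known. Arrays of the same number deviated together from their tissue means (r = 0.62, 0.19, 0.29 and 0.21 over 23063 probe sets). Arrays of different numbers were not compared, and the deviant arrays numbered 1 affect all these values. They therefore cannot show that the numbers pair the samples, and no label says so. A fit with the number as a block is given where it changes a call. The limma step was tested on simulated data.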

Additional observations from a re-analysis of the deposited data

Results flagged for a closer look

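Of 46 groups of 4 arrays checked, 4 held an array far from the other 3 by Dixon's test, where chance gives about 1 in 20, and none belonged to CXCL14, CXCL12, CXCR4 or ACKR3. CX3CR1 stood at 4.59 on neural fold array 3, against 6.70 to 7.02 on the other fold arrays. PREX1 stood at 9.08 on neural plate array 1, against 10.39 to 10.62. TFAP2B was at 12.01 on neural fold array 1 (12.49 to 12.57 on the others), and LMO2 was at 6.52 on the same array (8.02 to 8.16).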

How the results depend on the processing

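In this balanced design both filter settings, the intensity trend and the replicate block cannot move a difference of means. With the block CXCL14 had 3.66 and ACKR3 -1.62. These settings bear only on SEs and calls, and the SEs given here are those of the fit without the block. Under the other settings the changes of CXCL14, CXCL12, CXCR4 and ACKR3 kept their sign. CXCL14 moved by more than its pooled SD within tissues (0.34) with a pseudocount of 64 (3.14) and without both arrays numbered 1 (4.08), and CXCL12 by more than its own (0.11) with the mean of its 4 probe sets (-0.81). With 1 array left out, CXCL14 ranged from 3.40 to 3.88, CXCL12 from -1.10 to -1.004, CXCR4 from 0.20 to 0.44 and ACKR3 from -1.75 to -1.52. The replicate block changed no call of the 5 pathway lists, though over all probe sets it called 1.73% against 1.28%.

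Counts over all probe sets depended more on the setting. The 160 higher and 135 lower became 90 and 61 with median centring and 272 and 310 without both arrays numbered 1, and the lower became 89 with no filter. With 1 array left out they were 86 to 164 and 50 to 142. Signalling genes called went from 1 to 0 with the values as deposited, median centring, a pseudocount of 1 and no filter. Without fold array 1, and without both arrays numbered 1, the 1 called was RGS4, a regulator of G proteins (lower), not GNG10. Migration effectors called went from 0 to 1 (PTK2, focal adhesion kinase, higher) with the values as deposited, a filter at percentile 60 and an intensity trend, and to 2 (PTK2, and PREX1 lower) without both arrays numbered 1. Extracellular partner genes called went from 1 to 0 with median centring and with no filter. Left-out arrays gave 0 to 1 for signalling and partner genes and 0 for migration effectors, ligands and receptors. The cause of these moves was not tested. CXCL14 in neural plate and the fourth CXCL12 probe set lie near background, so their levels there are imprecise.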

Other observations

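The genes next to the 4 members on the chromosome were also looked up in the RefSeq annotation, 2 protein-coding genes on each side whatever their values. Of these 16 neighbours, 9 had a tested probe set. In limma 1.75% of all genes passed (2.3% with the block). Of the 9 neighbours, 0 passed (0 with the block and 0 at an unadjusted p under 0.05). Their changes ran from -0.33 to 0.68, with the lowest adjusted p at 0.81. Beside CXCL14, the carrier gene SLC25A48 had a change of 0.32 ± 0.33 (SE) and the histone variant gene H2AFY one of -0.29 ± 0.34 (adjusted p = 1.00 for both). NEUROG1, the proneural gene next to CXCL14, was under the filter. Beside ACKR3, COPS8, a signalosome subunit gene, had a change of 0.04 ± 0.28 and COL6A3, a collagen VI chain gene, one of -0.33 ± 0.47.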
